A study of Mus musculus with 4 samples.

Results

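Mitosis and chromosome segregation were followed here through 52 genes, listed by symbol for their known roles in cell division, in Met-low and Met-high cells of the mouse melanoma line B16-F10. All 52 genes had a probe among the 20832 genes on the array that could be named. Of these, 51 were kept among the 11958 genes detected clearly over the array background by both arrays of Met-low or both arrays of Met-high cells, and each of the 51 was detected in this way on all 4 arrays. The remaining member, Cenpf, a large kinetochore protein, was well above background on 1 of 2 Met-low arrays and on 0 of 2 Met-high arrays, with log2 values of -3.86, -5.14, -7.13 and -6.48 on Met-low 1, Met-low 2, Met-high 1 and Met-high 2, so no ratio is given for it.

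B16-F10 is a pigmented, metastatic line derived from a melanoma of a C57BL/6 mouse, and Met is the cell-surface receptor for hepatocyte growth factor. Cells were separated by flow cytometry into those with little Met on the surface (Met-low, n = 2) and those with much of it (Met-high, n = 2), and each population was then grown apart for 3 days before RNA was taken. Both populations came from the same unmodified line and received no drug, so the Met sort is the only labelled difference between them. The methods describe independently prepared samples, while the sample labels do not say whether replicates came from separate sorts, so the p-values measure the spread between these 2 samples per population, which may be partly technical. Cy3-labelled cRNA was hybridised to 1-colour Agilent mouse arrays, which lay on 1 slide and were scanned once. Met-low samples held positions 1 and 2 of the slide and Met-high samples positions 3 and 4, and an effect of position cannot be told apart from one of population. Values are log2 intensities minus the array's own 75th percentile, ratios are Met-high minus Met-low on that scale, and a gene is called at an adjusted p under 0.05 in limma with Benjamini-Hochberg adjustment over all 11958 genes.

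The arrays were comparable in overall signal. The 75th percentile of the intensity lay between 858 and 1331, between 50.01% and 53.6% of the 43020 spots were well above background, and 0 spots were saturated. Of the 9 melanocyte lineage markers examined, which include Tyr, Dct, Pmel and Mlana, all 9 were kept with a median ratio of 0.01. By limma 0 were called at an adjusted p under 0.05, with 1 at an unadjusted p under 0.05. That gene was Sox10, with a ratio of 0.53 without overlap (limma adjusted p = 0.1285). Mitf had a ratio of -0.14, also without overlap, and the arrays of the other 7 overlapped. Among markers of other cell types, the leukocyte genes Ptprc and Adgre1 were not kept, while Itgam, Csf1r and Cd3e were. Itgam had a ratio of -0.65 and Csf1r of 0.35, each without overlap of the populations and neither called (limma adjusted p = 0.189 and 0.300), and the arrays of Cd3e overlapped. Of the endothelial markers 3 of 5 were kept, Kdr, Vwf and Pecam1, with ratios of 0.36, 0.42 and 0.07 and 0 called by limma, with 0 at an unadjusted p under 0.05. Krt14 was the 1 of 5 epithelial markers kept, and 5 of 6 fibroblast markers were not kept. The fibroblast collagen gene Col1a2 was called lower in Met-high cells, with a ratio of -1.10 (SE 0.17, limma adjusted p = 0.0312). Its values were -0.97, -0.73, -2.004 and -1.89 in the array order used above. The part of these marker differences in the results on mitosis was not tested. Met itself was at -0.26 and -0.89 in Met-low and 1.03 and -0.43 in Met-high cells, so that its transcript overlapped between the populations after 3 days of culture, with a ratio of 0.87 (SE 0.51, limma adjusted p = 0.333).

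Cells enter mitosis when cyclin-dependent kinase 1, bound to a cyclin, is activated by Cdc25 phosphatases, and the Polo and Aurora kinases then drive centrosome separation and spindle assembly. Kinetochores, built on centromeric chromatin, attach chromosomes to spindle microtubules, and the spindle assembly checkpoint restrains the anaphase promoting complex until all chromosomes are attached. Separase then cleaves cohesin, condensin keeps the chromosomes compact, and motors and cytokinesis proteins divide the cell. Transcripts of many of these genes accumulate in the G2 phase and in mitosis under the MuvB complex, B-Myb and Foxm1. The DNA elements long associated with this programme are the CCAAT box, bound by NF-Y, and the cell cycle genes homology region (CHR), whose common core is TTTGAA. In a whole-culture sample, a larger share of dividing cells and more RNA per dividing cell cannot be told apart.

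Promoter sequence is shown for the called members with the largest ratios in each direction that have an entry in RefSeq, and for Ccnb1 and Cdk1, whose products form the mitotic kinase that starts the process. Each window runs from 250 bases before to 50 bases after the annotated start of the gene, on RefSeq build GRCm38.p6, written 5′ to 3′ on the strand of the gene, with matches to CCAAT (or ATTGG) and TTTGAA (or TTCAAA) in capitals. Smc4 is named only, and Smc2 is the other called member on the lower side beside Cenpe.
Plk1 (chr7:122159185-122159484, forward strand): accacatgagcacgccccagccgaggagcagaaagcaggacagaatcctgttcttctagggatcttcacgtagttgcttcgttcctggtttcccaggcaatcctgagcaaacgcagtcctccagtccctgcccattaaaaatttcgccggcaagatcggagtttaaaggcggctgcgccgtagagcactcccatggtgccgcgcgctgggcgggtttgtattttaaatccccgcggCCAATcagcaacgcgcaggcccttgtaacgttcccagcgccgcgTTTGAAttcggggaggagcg
Espl1 (chr15:102296043-102296342, forward strand): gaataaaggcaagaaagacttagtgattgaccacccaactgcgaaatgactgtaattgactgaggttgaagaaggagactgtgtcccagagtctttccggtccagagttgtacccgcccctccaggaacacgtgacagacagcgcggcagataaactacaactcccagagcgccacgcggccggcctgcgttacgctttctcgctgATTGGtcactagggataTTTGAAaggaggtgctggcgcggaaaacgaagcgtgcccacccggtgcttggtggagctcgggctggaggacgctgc
Cenpe (chr3:135212313-135212612, forward strand): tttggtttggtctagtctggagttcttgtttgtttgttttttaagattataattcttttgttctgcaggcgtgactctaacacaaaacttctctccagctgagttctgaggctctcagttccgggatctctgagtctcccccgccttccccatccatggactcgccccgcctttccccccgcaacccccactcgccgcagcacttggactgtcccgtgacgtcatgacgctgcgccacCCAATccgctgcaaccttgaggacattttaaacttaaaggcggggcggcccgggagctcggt
Smc2 (chr4:52438971-52439270, forward strand): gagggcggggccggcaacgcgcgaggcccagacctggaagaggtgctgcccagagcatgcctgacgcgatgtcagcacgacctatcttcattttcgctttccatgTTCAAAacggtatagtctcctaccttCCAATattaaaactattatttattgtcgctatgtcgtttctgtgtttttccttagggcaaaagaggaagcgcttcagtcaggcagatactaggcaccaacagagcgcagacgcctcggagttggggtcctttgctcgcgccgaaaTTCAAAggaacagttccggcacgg
Ccnb1 (chr13:100786437-100786736, reverse strand): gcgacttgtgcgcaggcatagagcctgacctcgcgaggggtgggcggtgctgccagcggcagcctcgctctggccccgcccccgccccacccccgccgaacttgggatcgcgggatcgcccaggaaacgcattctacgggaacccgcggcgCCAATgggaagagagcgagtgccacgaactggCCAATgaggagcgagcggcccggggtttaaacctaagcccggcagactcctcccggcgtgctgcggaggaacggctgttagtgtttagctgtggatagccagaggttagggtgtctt
Cdk1 (chr10:69352863-69353162, reverse strand): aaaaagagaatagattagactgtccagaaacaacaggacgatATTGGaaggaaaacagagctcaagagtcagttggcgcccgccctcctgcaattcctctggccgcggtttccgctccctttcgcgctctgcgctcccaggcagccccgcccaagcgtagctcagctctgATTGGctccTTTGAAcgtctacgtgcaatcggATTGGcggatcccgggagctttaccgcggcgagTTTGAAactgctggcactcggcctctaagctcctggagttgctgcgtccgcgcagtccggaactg

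The windows of Plk1 and Espl1, which were called higher in Met-high cells, held 1 CCAAT and 1 TTTGAA match each. In Espl1 the pair lay upstream of the start, with first bases at -44 and -27. In Plk1 the matches lay on either side of the start, with first bases at -14 and 31. Cdk1, which was higher in Met-high cells without being called, held 3 CCAAT and 2 TTTGAA matches. Cenpe, called lower in Met-high cells, held 1 CCAAT match and 0 TTTGAA matches, while Smc2, also called lower, held 1 and 2. Ccnb1 held 2 CCAAT and 0 TTTGAA matches. Members of either direction thus carried both kinds of match, and a match describes letters in a window and not a bound site.

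Over the whole set, 43 of 52 members had a promoter entry, giving 47 windows because 4 genes had several starts. TTTGAA was found on either strand in 72.3% of member windows, against 17.9% of the 32851 windows of all genes in the table and 12.3% of those of genes kept on the arrays. CCAAT was found in 74.5% of member windows, against 37.4% of all windows, and the pair occurred together in 61.7% against 6.95%. In the list of other cell division genes described below, 37.5% of windows held TTTGAA and 58.0% held CCAAT. For DNA replication genes the shares were 17.8% and 57.8%. The TTTGAA matches of members were centred at a median of -13.5 bases from the start, and 71.4% of 42 matches lay within 50 bases of it, against 26.3% of 6737 matches in all windows. For CCAAT the contrast was smaller, with 37% of 73 member matches within 50 bases against 29.2% of 17707 in all windows. Within the members, presence of TTTGAA did not separate the directions: the 29 genes with a match had a median ratio of 0.52, with 6 of them lower in Met-high cells, and the 13 genes with a promoter entry and no match had a median ratio of 0.41, with 2 of them lower.

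**Figure D1:**
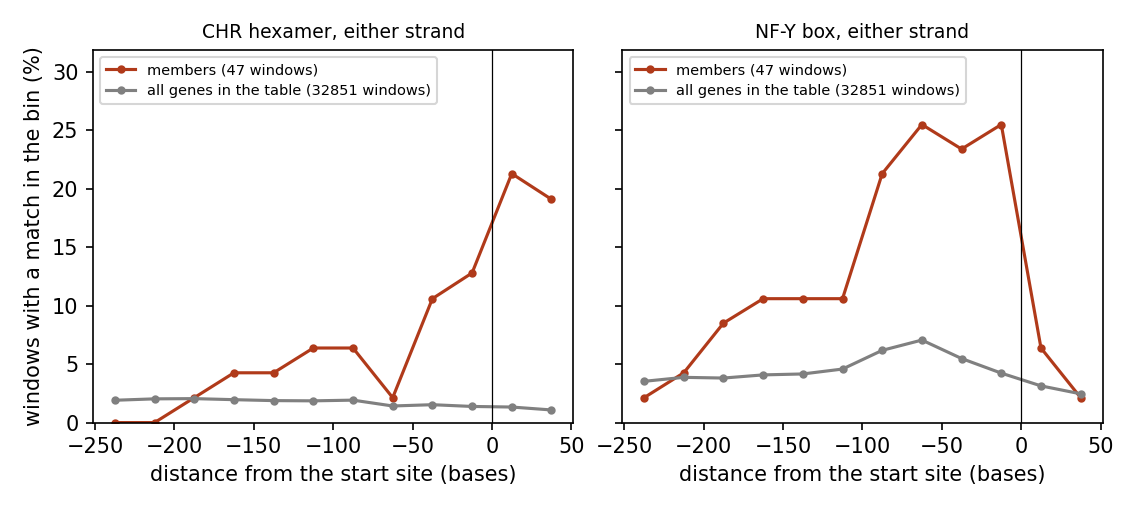
Share of promoter windows (%, y axis) with a match to the CHR hexamer (left) or the NF-Y box (right) in each bin of 25 bases, by distance of the bin from the start site in bases (x axis), for 47 windows of the mitosis members and 32851 windows of all genes in the table. Matches of the members gather near and just downstream of the start for the hexamer and in the stretch just before it for the box. The line of all genes peaks at 2.05% for the hexamer. For the box it also peaks before the start, at 7.06% in the bin from -75 to -50.

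Most mitosis genes were modestly higher in Met-high cells, and a few were much lower. Of the 51 members, 42 had their higher mean in Met-high cells and 9 in Met-low cells. The median ratio of the members was 0.52, with quartiles of 0.17 and 0.69, against a median of 0.10 over all genes kept, and 41 of 51 members lay above that median of all genes. Under a scaling to the 75th percentile of detected probes alone, the median of all genes moved from 0.10 to -0.05 and that of the members to 0.38, a shift common to all genes. The median of the members lay 0.43 above that of all genes, and this distance was 0.26 if Met-low replicate 1 was left out, 0.32 if Met-high replicate 2 was, and 0.33 with quantile normalization. The arrays of the populations did not overlap, with Met-high above, for 33 members, 64.7% of them against 35.8% of all genes. In the opposite direction they did not overlap for 6 members, 11.8% against 22.6% of all genes, and this count was 10 without Met-high replicate 2.

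Few of these differences passed the test across all genes in the main fit, which takes no account of replicate number. A fit with replicate number as a block, described at the end, called 31 members higher and 5 lower. Over all genes it called 1969 higher and 1582 lower. Called higher in Met-high cells were 3 members (Plk1, Aurka and Espl1), 5.88% of the set, where 1.92% of all genes were called in that direction. Called lower were 3 members (Smc4, Cenpe and Smc2), also 5.88%, where 3.80% of all genes were called. At an unadjusted p under 0.05, 25 members were higher in Met-high cells, 49.0% against 14.3% of all genes, and 4 were lower, 7.84% against 11.9%. The count of members called higher fell to 0 if Met-low replicate 1 or Met-high replicate 2 was left out, and to 1 if Met-low replicate 2 was. Smc4, Cenpe and Smc2 were called whichever array was left out, and Mki67 joined them when that array was Met-high replicate 2. By the 2-fold selection of the study's methods, which has no test, 1 member (Plk1) was higher, 1.96% against 2.43% of all genes, and 4 (Smc4, Cenpe, Mki67 and Smc2) were lower, 7.84% against 5.31%. The count of members over 2-fold higher was 2 without Met-low replicate 2 and 4 without Met-high replicate 1.

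The members were also offset together between replicates of the same population. Met-low 2 exceeded Met-low 1 in 44 of 51 members, with a median difference of 0.25 against 0.02 over all genes, and Met-high 2 exceeded Met-high 1 in 40 of 51, with a median of 0.28 against 0.04. Between populations, the median difference of the members ran from 0.30 (Met-high 1 minus Met-low 2, above 0 in 34 of 51) to 0.68 (Met-high 2 minus Met-low 1, above 0 in 44 of 51), while that of all genes ran from 0.08 to 0.11. The offset between replicates ran the same way in both populations. Between samples of equal number the median difference of the members was 0.51 for replicate 1 and 0.54 for replicate 2. The smallest difference between populations, from samples of unlike number, was close in size to the largest within a population.

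**Figure D2:**
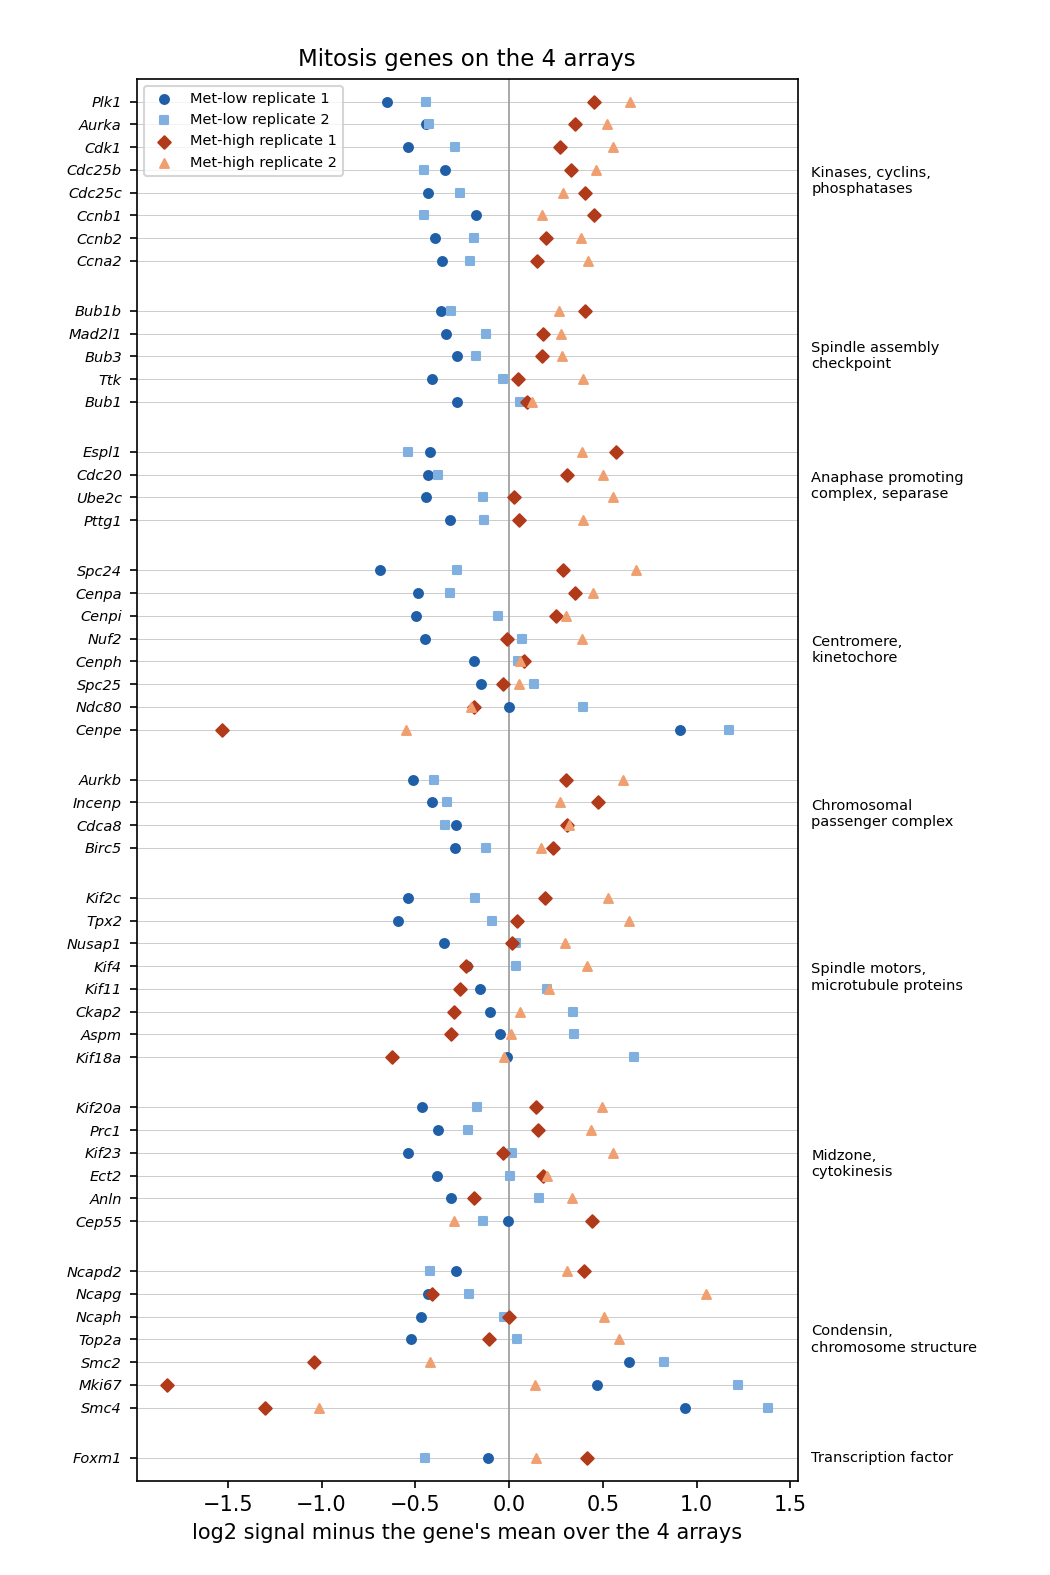
Log2 signal of each of the 51 members on the 4 arrays minus that gene's own mean over the arrays (x axis), with genes grouped by role (y axis); blue points are Met-low and red or orange points Met-high replicates. Kinases, cyclins, checkpoint, separase and passenger complex genes show the Met-high points to the right of the Met-low points, whereas Cenpe, Smc2, Mki67 and Smc4 lie the other way.

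Genes for entry into mitosis were higher in Met-high cells throughout. In all 8 kinases, cyclins and phosphatases the Met-high arrays lay above the Met-low arrays without overlap, with ratios from 0.57 to 1.09 and a median of 0.75, and 2 of the 8 were called. Over all genes, 35.8% had no overlap in that direction and 1.92% were called higher. Plk1 (NM_011121), the Polo-like kinase that acts at centrosomes, kinetochores and the midzone, was at 4.29 and 4.5 in Met-low and 5.39 and 5.59 in Met-high cells. The gap between the populations was several times the distance between replicates, and the ratio of 1.09 (SE 0.17), 2.13-fold, was called (limma adjusted p = 0.0323). Aurka (NM_011497), the centrosomal Aurora kinase, was 3.60 and 3.62 in Met-low cells and 4.40 and 4.57 in Met-high cells. Its Met-low arrays were nearly equal and the ratio of 0.87 (SE 0.16), 1.83-fold, was called as well (limma adjusted p = 0.0446). Cdk1, the mitotic cyclin-dependent kinase, had values of 2.33 and 2.58 in Met-low against 3.14 and 3.43 in Met-high cells, with no overlap and a ratio of 0.83 (SE 0.19, limma adjusted p = 0.0732). Its partner Ccnb1, cyclin B1, was at 3.73 and 3.45 against 4.35 and 4.08, also without overlap, with a ratio of 0.63 (SE 0.19, limma adjusted p = 0.126). The member of the group with the smallest ratio was Ccna2, cyclin A2, at 3.04 and 3.19 against 3.54 and 3.82 (ratio 0.57, SE 0.18, limma adjusted p = 0.132). The other 3, Ccnb2, Cdc25b and Cdc25c, had ratios between 0.58 and 0.80.

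The calls in this group were lost in some or all of the fits with 1 array left out, in which the SE was larger. For Plk1 it rose from 0.174 to 0.262 or 0.274, and for Aurka from 0.16 to 0.255 or 0.272. Plk1 was not called without Met-low replicate 1 (ratio 0.99, limma adjusted p = 0.0865) or without Met-high replicate 2 (ratio 0.997, limma adjusted p = 0.0707), and its adjusted p ran from 0.0125 to 0.162 over 13 alternative settings of background, scaling, filter, probes, spread and arrays, 10 of which called it. Aurka was called in 6 of 13, with an adjusted p from 0.0194 to 0.203, and lost the call when any 1 of the 4 arrays was left out, with ratios from 0.79 to 0.96. Its limma adjusted p was then 0.131 or 0.112 for Met-low replicate 1 or 2 left out and 0.0615 or 0.133 for Met-high replicate 1 or 2 left out.

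The spindle assembly checkpoint genes lay higher in Met-high cells by smaller amounts, and 0 of the 5 were called by limma, with 3 at an unadjusted p under 0.05. None of the 5 had overlapping populations, and their median ratio was 0.46. Over all genes, 35.8% had Met-high above without overlap and 14.3% were higher at an unadjusted p under 0.05. Bub1b, which encodes the checkpoint protein BubR1, had the largest difference, with 0.80 and 0.85 in Met-low and 1.56 and 1.43 in Met-high cells. Its ratio was 0.67 (SE 0.16, limma adjusted p = 0.0755). Mad2l1, which encodes the Mad2 inhibitor of Cdc20, was at 2.80 and 3.01 against 3.32 and 3.41, a ratio of 0.46 (SE 0.17, limma adjusted p = 0.167). Of the further probes of Mad2l1, those with lower signal gave ratios of 0.20 and 0.04. Bub1, a kinetochore kinase of the checkpoint, had the smallest ratio, with 0.34 and 0.68 in Met-low and 0.72 and 0.74 in Met-high cells (ratio 0.22, SE 0.18, limma adjusted p = 0.489), and its second Met-low array almost met the Met-high arrays. Its ratio was 0.05 without Met-low replicate 1 and 0.38 without Met-low replicate 2. Bub3 and Ttk had ratios of 0.46 and 0.44.

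Of the 4 genes that trigger anaphase, all had non-overlapping arrays with Met-high cells above, a median ratio of 0.69, and 1 call. Over all genes, 35.8% had no overlap in that direction and 1.92% were called higher. Espl1 (NM_001014976), the protease separase that cuts cohesin, was at 0.40 and 0.28 in Met-low and 1.39 and 1.21 in Met-high cells. The populations differed by 0.96 (SE 0.16), 1.94-fold, with replicates close together (limma adjusted p = 0.0387). Cdc20, the activator of the anaphase promoting complex that the checkpoint holds back, was at 3.80 and 3.85 against 4.54 and 4.73. Its ratio of 0.81 (SE 0.16) fell short of the threshold (limma adjusted p = 0.0560). Pttg1, the inhibitor of separase known as securin, had the smallest ratio, 0.45 (SE 0.19, limma adjusted p = 0.216), from 3.01 and 3.20 against 3.38 and 3.72. Separase and its inhibitor were therefore both higher in Met-high cells on these arrays, although only the protease was called, and the Pttg1 ratio was 0.28 without Met-high replicate 2. The ubiquitin-conjugating enzyme gene Ube2c had a ratio of 0.58. Espl1 was called in 7 of 13 alternative settings, with an adjusted p from 0.0215 to 0.183, and it was not called when an array was left out, with a limma adjusted p of 0.0778 or 0.106 for Met-low replicate 1 or 2 and of 0.0832 or 0.0547 for Met-high replicate 1 or 2.

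Centromere and kinetochore genes were divided. Of the 8 measured, 6 were higher by mean in Met-high cells and 2 lower, their median ratio was 0.26, and the single call was in the lower direction. Over all genes, 3.80% were called lower. Cenpe (NM_173762), the kinesin that carries chromosomes towards the spindle equator, was at 1.28 and 1.55 in Met-low cells and at -1.16 and -0.18 in Met-high cells. Both Met-low arrays lay far above both Met-high arrays, which were themselves spread, and the ratio of -2.08 (SE 0.35), a 4.24-fold lower level in Met-high cells, was called (limma adjusted p = 0.0363). Over 13 alternative settings its adjusted p ran from 0.00107 to 0.159 and 12 of them called it, the exception being the fit with no filter on dim probes. Ndc80, the microtubule-binding subunit of the outer kinetochore, was at -0.93 and -0.53 against -1.11 and -1.13, which is lower in Met-high cells by less than the test could separate (ratio -0.39, SE 0.19, limma adjusted p = 0.268), and its ratio was -0.59 without Met-low replicate 1 and -0.19 without Met-low replicate 2. Its complex partners did not share one pattern. Spc24 had a ratio of 0.97, Nuf2 of 0.38, and Spc25 the smallest of the group, 0.02 (SE 0.18, limma adjusted p = 0.951), from 4.21 and 4.49 against 4.33 and 4.41, with overlapping arrays and a sign that turned to -0.13 under quantile normalization and to -0.12 under scaling to detected probes, and also with Met-low replicate 1 (-0.12) or Met-high replicate 2 (-0.02) left out. Cenpa, the histone H3 variant that marks centromeres, was at 2.39 and 2.57 against 3.23 and 3.33, a ratio of 0.80 (SE 0.16, limma adjusted p = 0.0567). Cenph and Cenpi had ratios of 0.14 and 0.55.

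The chromosomal passenger complex, which corrects faulty attachments and later acts at the midzone, had all 4 members higher in Met-high cells without overlap, a median ratio of 0.68, and 0 calls by limma, with 4 at an unadjusted p under 0.05. Over all genes these shares were 35.8% without overlap and 14.3% at an unadjusted p under 0.05 in that direction. Its kinase Aurkb was at -3.84 and -3.72 in Met-low and -3.02 and -2.72 in Met-high cells. This was the largest ratio of the complex, 0.91 (SE 0.18, limma adjusted p = 0.0551). Over 13 alternative settings the Aurkb ratio ran from 0.62, with normexp background correction, to 1.08, with quantile normalization. Birc5, the subunit survivin, was at 5.58 and 5.75 against 6.10 and 6.04, the smallest ratio of the complex at 0.41 (SE 0.16, limma adjusted p = 0.190). The scaffold Incenp and the subunit Cdca8, known as borealin, had ratios of 0.74 and 0.63, and each of them gave a ratio of the same sign with a further probe.

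Spindle motors and microtubule proteins showed no common direction. By mean, 4 of 8 were higher and 4 lower in Met-high cells, the median ratio was 0.07, and 0 were called by limma, with 1 at an unadjusted p under 0.05. Kif2c, the kinesin that depolymerises microtubules at centromeres, had the largest ratio, 0.72 (SE 0.21, limma adjusted p = 0.118), from -0.90 and -0.55 against -0.17 and 0.16. Kif11, the motor Eg5 that pushes spindle poles apart, had the smallest, -0.05 (SE 0.24, limma adjusted p = 0.915), from -0.92 and -0.56 against -1.02 and -0.55, with arrays that overlapped and a sign that turned to 0.011 under normexp background correction, to 0.13 with Met-low replicate 2 left out and to 0.19 with Met-high replicate 1 left out. The 95% confidence interval of the Kif11 ratio ran from -0.65 to 0.55, so a difference of the size seen in Kif2c lies outside it. Tpx2, which activates Aurora A on spindle microtubules, had a ratio of 0.68, Kif18a of -0.65, and Kif4, Nusap1, Aspm and Ckap2 lay between -0.30 and 0.31.

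The 6 genes of the midzone and of cytokinesis were all higher by mean in Met-high cells, with a median ratio of 0.45, and 0 were called by limma, with 2 at an unadjusted p under 0.05. In 3 of the 6 the arrays did not overlap, where 35.8% of all genes had Met-high above without overlap. Kif20a, a midzone kinesin, had the largest ratio, 0.64 (SE 0.21, limma adjusted p = 0.139), from 1.63 and 1.92 in Met-low against 2.24 and 2.59 in Met-high cells. Cep55, needed for the final cut between daughter cells, had the smallest, 0.14 (SE 0.27, limma adjusted p = 0.771), from -1.96 and -2.09 against -1.51 and -2.25. Its Met-high arrays lay on either side of its Met-low arrays, and the ratio was -0.00047 under scaling to detected probes, -0.22 with Met-high replicate 1 left out and 0.51 with Met-high replicate 2 left out. Prc1, Kif23, Ect2 and Anln had ratios between 0.15 and 0.59.

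Condensin and chromosome structure genes held the largest difference of the whole set. Of these 7, 3 were lower and 4 higher by mean in Met-high cells, and 2 were called, both lower. Over all genes, 3.80% were called lower. Smc4 (NM_133786) and Smc2 (NM_008017) encode the paired ATPase arms of condensin. Smc4 was at 1.28 and 1.72 in Met-low cells and -0.96 and -0.68 in Met-high cells, a ratio of -2.32 (SE 0.22), 4.99-fold lower, with the smallest adjusted p of any member (limma adjusted p = 0.00997). Smc2 was at 0.84 and 1.03 against -0.84 and -0.22, a ratio of -1.46 (SE 0.25), 2.76-fold lower (limma adjusted p = 0.0383). The arms of condensin were thus lower together, with replicates closer to each other than to the other population. The subunits Ncapd2 and Ncaph of the same complex had ratios of 0.70 and 0.50, higher in Met-high cells without overlap and not called. Ncapg had a ratio of 0.64 (SE 0.48), also not called. Its arrays overlapped, at -3.85 and -3.63 in Met-low against -3.83 and -2.37 in Met-high cells. Smc4 and Smc2 were each called in 12 of 13 alternative settings, with adjusted p values from 0.00162 to 0.0816 and from 0.00508 to 0.169, the exception again being the fit with no filter on dim probes.

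Top2a, the topoisomerase that untangles sister chromatids, was at 1.28 and 1.85 in Met-low against 1.70 and 2.39 in Met-high cells, with overlapping arrays (ratio 0.48, SE 0.31, limma adjusted p = 0.382). Its ratio was 0.20 or 0.76 with Met-low replicate 1 or 2 left out and 0.83 or 0.13 with Met-high replicate 1 or 2 left out. Mki67 (NM_001081117), the Ki-67 protein that coats mitotic chromosomes and serves as a marker of cycling cells, was at 2.67 and 3.42 against 0.38 and 2.34. The populations did not overlap, yet the Met-high arrays lay far apart from each other, and the ratio of -1.69 (SE 0.66), 3.23-fold lower, was not called (limma adjusted p = 0.189). Without Met-high replicate 2 the ratio was -2.67 and was called (limma adjusted p = 0.00251). With Met-high replicate 1 left out instead, it was -0.71 (limma adjusted p = 0.245), under 2-fold. Over the 13 alternative settings the adjusted p ranged from 0.00251 to 0.433. A second Mki67 probe gave a ratio of -1.15 (limma adjusted p = 0.445). Foxm1, the forkhead factor that drives transcription of many of these genes, was at 2.66 and 2.33 in Met-low and 3.19 and 2.92 in Met-high cells, higher in Met-high cells without overlap and not called (ratio 0.56, SE 0.20, limma adjusted p = 0.162).

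**Figure D3:**
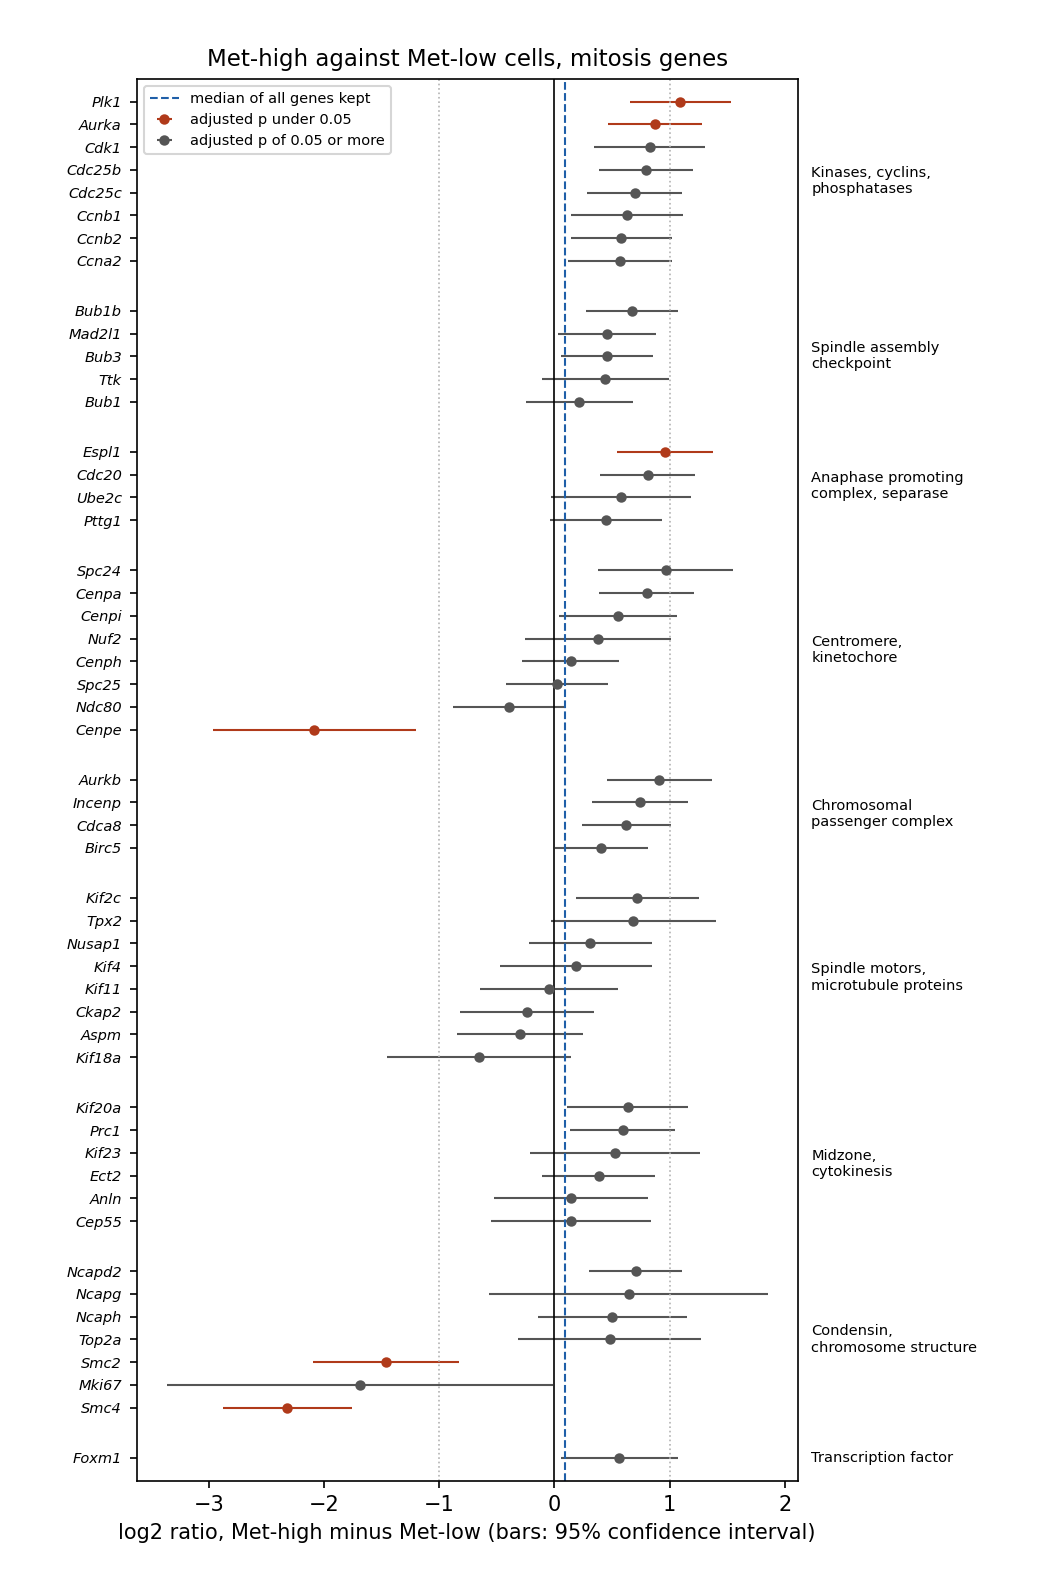
Log2 ratio, Met-high minus Met-low, with 95% confidence interval (x axis) for the 51 members grouped by role (y axis); red marks the 6 members at an adjusted p under 0.05 in limma, the dashed line is the median of all genes kept and the dotted lines mark a 2-fold difference. The interval lies above 0 for 25 members (49.0%, against 14.3% of all genes) and below 0 for 4 (7.84%, against 11.9%).

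Where a gene was covered by several probes that passed the background filter, these gave one direction. In 13 members with several such probes, 30 in all, every probe of a gene had the same sign. A second Nuf2 probe did not pass the filter. It was at -6.41 and -6.38 in Met-low against -6.67 and -7.03 in Met-high cells, the opposite direction to the Nuf2 probe used. The median range of the ratio within a gene was 0.17, and the largest was 0.54.

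Members with a lower mean in Met-high cells had a greater median length on the genome, although lengths overlapped between the directions. The longest member, Kif4 with 101207 bases, was higher by mean in Met-high cells, and Ckap2 with 17671 bases was lower. The 9 members lower in Met-high cells had a median genomic length of 39.9 kb and the 42 higher members one of 18.5 kb. Over the 51 members the Spearman correlation of length with the ratio was -0.49, and over all 11958 genes it was -0.19. This comparison was chosen after the values were seen, runs across genes that share the same 4 arrays and is given as a description with no test.

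Beyond the members, 116 other cell division genes were examined as a list, of which 114 were kept. Their median ratio was 0.35, with 80 higher and 34 lower by mean in Met-high cells. The arrays did not overlap for 68 of the 114 with Met-high above and for 13 with Met-low above. Over all genes these shares were 35.8% and 22.6%. By the test 6 of the 114 were higher in Met-high cells and 1 was lower, where 1.92% and 3.80% of all genes were called. Pkmyt1 and Wee1, the kinases that hold Cdk1 inactive before mitosis, had ratios of 1.12 and 0.89 (limma adjusted p = 0.0222 and 0.0385). Mybl2, which encodes B-Myb, had a ratio of 0.92 (limma adjusted p = 0.0449). Cdca5, which encodes the cohesin protector sororin, had a ratio of 0.90 (limma adjusted p = 0.0411), and the spindle proteins Spag5 and Kif22 had ratios of 1.09 and 0.94 (limma adjusted p = 0.0464 and 0.0440). In this list the inhibitory kinases of Cdk1 and the member phosphatases Cdc25b and Cdc25c, which oppose them, were all higher in Met-high cells by mean, and the phosphatases were not called.

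Smc3, the cohesin ATPase, was the 1 gene of that list called lower in Met-high cells, at 1.79 and 2.03 in Met-low against 0.37 and 0.79 in Met-high cells (ratio -1.33, SE 0.21, limma adjusted p = 0.0321). Its partner Smc1a was at 2.41 and 2.75 against 1.75 and 2.57, with overlapping arrays (ratio -0.42, SE 0.31, limma adjusted p = 0.433), and the cohesin subunit Rad21 had a ratio of 0.37. Smc1a, Rad21 and the condensin II subunits were chosen after their values were seen. The condensin II subunits Ncapd3, Ncaph2 and Ncapg2 had ratios of 0.23, 0.37 and -0.16. Over the 17 genes of cohesin, its regulators and condensin II, the median ratio was -0.18, with 7 higher and 10 lower by mean. Of the list of 114, those called higher were 0 if Met-low replicate 1 was left out and 1 if Met-high replicate 2 was, and those called lower were 0 if Met-low replicate 2 was left out and 5 for each other array.

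DNA replication genes, which act in the preceding S phase, were compared as the part of the cell cycle closest to mitosis. All 46 listed genes were kept, with a median ratio of 0.62, and 42 of them were higher by mean in Met-high cells. The arrays did not overlap in 37 of the 46 with Met-high above and in 3 with Met-low above. Over all genes these shares were 35.8% and 22.6%, and 1.92% were called higher and 3.80% lower. The helicase subunits Mcm5 and Mcm7, the initiation factor Mcm10 and the loader Cdc6 were called higher, with ratios of 1.01, 0.84, 1.02 and 0.90 (limma adjusted p = 0.0416, 0.0446, 0.0318 and 0.0411). In the lower direction limma called 0, with 1 gene at an unadjusted p under 0.05, and 1 was called without Met-high replicate 1. The count called higher was 0 if either Met-low array or Met-high replicate 2 was left out. All 3 lists were measured on the same arrays, and the difference between lists was not tested.

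**Figure D4:**
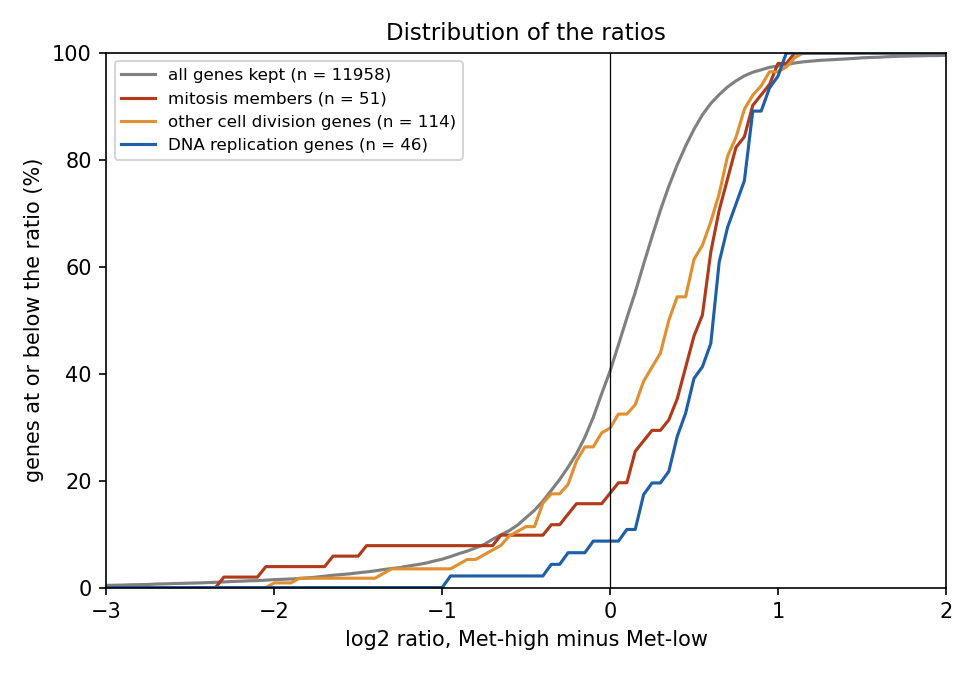
Cumulative share of genes (%, y axis) at or below each log2 ratio, Met-high minus Met-low (x axis, shown from -3 to 2), for 11958 genes kept, 51 mitosis members, 114 other cell division genes and 46 DNA replication genes. A ratio of 0 or less was found for 40.5% of all genes, 17.6% of the mitosis members, 29.8% of the other cell division genes and 8.70% of the replication genes, and the mitosis curve has a tail of 4 genes below -1.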

How the data were processed

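Total RNA (200 ng) of 2 Met-low and 2 Met-high samples was labelled with Cy3 and measured on 1-colour Agilent arrays. The authors deposited scanner output with a background-corrected intensity per spot, with flags for outliers and for signal well above background, and a table of processed log2 values. As deposited, that table fits log2 intensities minus the array's 75th percentile, centred per probe, since slopes against the scanner values were 0.999 to 1.001, with 93.0% to 99.5% of 39429 probes within 0.01, and column medians of 0.149, -0.035, 0.035 and -0.117. Per the submitters' processing notes the software was Agilent Feature Extraction 10.7.3.1, while the file headers name 11.0.1.1. A Lowess step named in the methods left no trace in that comparison.

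Intensities were taken to log2 minus the 75th percentile of the array, between 207 and 232 flagged spots per array were left out, and spots of a probe were averaged. Accessions matched 27427 probes to RefSeq symbols (GRCm38.p6), 12002 were unmatched, and the brightest probe stood for a gene. Genes whose spots were all well above background in both samples of either population were fitted in R 4.3.3 with limma 3.58.1 (lmFit, eBayes), two-sided, with 95% confidence intervals. With 2 arrays against 2 only 3 splits exist and a permutation test cannot go below 0.333, so none is given. The number of arrays limits the precision. On simulated data the fit found 55 of 100 genes with a log2 change of 1 and 99 of 100 with one of 2. It also called 14 unchanged genes. The simulated noise was independent between arrays.

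The members and lists were chosen with earlier results of these data known. Members were named with values if called, if largest or smallest in absolute ratio within a role, or if listed by name (Cdk1, Ccnb1, Plk1, Aurka, Aurkb, Bub1b, Mad2l1, Cdc20, Cenpa, Ndc80, Kif11, Birc5, Top2a, Mki67, Foxm1 and Smc2). The rest are given by ratio or range, and of other lists up to 8 called genes were named. Alternatives were normexp background correction (offset 50, on median intensities), quantile normalization, the 75th percentile over detected probes, no filter or a stricter filter, flagged spots left in, gene means over probes, single probes, the authors' values, a trend in eBayes, each array left out and a replicate block. Ranges over 13 alternatives leave out the block and the single probes. Python 3.11.15, numpy 2.4.6, pandas 2.3.3 and matplotlib 3.10.9 were used.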

Additional observations from a re-analysis of the deposited data

How the results depend on the processing

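The direction of the set was kept under every alternative run: the median ratio of the members, 0.52, was 0.38 with the 75th percentile over detected probes and 0.36 to 0.63 with 1 array left out. Counts of calls moved more, and the cause was not tested. Members called lower (3) were 0 with no filter on dim probes, where over all genes 7 were called lower and 0 higher. Members called higher (3) were 7 with normexp, 1 with the percentile over detected probes, 0 with no filter, 6 with the filter on all 4 arrays, 12 with a trend in eBayes and 0 to 4 with 1 array left out. Members over 2-fold higher (1) were 0 with the percentile over detected probes and 1 to 4 with 1 array left out, and members whose arrays did not overlap with Met-low above (6) were 6 to 10. For other cell division genes called lower (1), the counts were 3 with normexp, 2 with quantile normalization, 2 with the percentile over detected probes, 0 with no filter, 2 with a trend and 0 to 5 with 1 array left out; for those called higher (6), they were 12, 2, 1, 0, 18 and 0 to 7 in that order. DNA replication genes called lower (0) were 1 with normexp, with the percentile over detected probes, with the filter on all 4 arrays and with a trend, and 0 to 1 with 1 array left out; those called higher (4) were 8 with normexp, 2 with quantile normalization, 1 with the percentile over detected probes, 0 with no filter, 12 with a trend and 0 to 4 with 1 array left out. The sign turned for Spc25 (-0.13 with quantile normalization, -0.12 with the percentile over detected probes, -0.12 to 0.16 with 1 array left out), Kif11 (0.011 with normexp, -0.28 to 0.19) and Cep55 (-0.00047 with the percentile over detected probes, -0.22 to 0.51). With 1 array left in a population, it was assumed to vary like the other population. The values of single named members were also counted over 14 alternatives, which here include the replicate block described below. Of these values, 312 kept direction and side of the threshold, 24 passed it newly, 19 no longer passed it and 9 turned sign.

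The labels number the replicates 1 and 2 in each population and do not say whether samples of equal number were prepared together. What such samples share was not tested. The difference between replicates 1 and 2 correlated across 11942 genes between the populations (r = 0.54). With the replicate number as a block, members called were 5 lower, Mki67 among them (limma adjusted p = 0.0251), and 31 higher, other cell division genes 12 lower and 48 higher, and DNA replication genes 1 lower and 31 higher, where over all genes 1582 were called lower and 1969 higher.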
